A study of Mus musculus with 2 samples.

Results

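The small leucine-rich proteoglycans are secreted proteins of the extracellular matrix. Described here are 8 of their genes, Dcn, Lum, Bgn, Ogn, Prelp, Aspn, Omd and Podn, which were taken by name from the family. They are 8 of the 55536 annotated genes in the gene tables. Total RNA had been sequenced from the gastrocnemius, a calf muscle, of male B6CASTF1/J mice at 10 days of age. This F1 hybrid strain comes from a cross of C57BL/6J and CAST/EiJ, and neither a treatment nor an engineered allele was labelled. There was 1 group of 2 libraries, replicate 1 from the animal numbered 3 and replicate 2 from the animal numbered 4, each made from 300 ng of RNA with ERCC spike-in RNAs. The labels call them biological replicates but give both the same donor code. No condition can be compared, no test was possible, and every error below is the spread between 2 libraries or a counting error.

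A protein of this family has a core of leucine-rich repeats that folds into a curved solenoid and, in many members, carries chondroitin, dermatan or keratan sulfate chains. The cores bind collagen fibrils and influence their spacing and diameter, and several also bind growth factors or cell surface receptors. In skeletal muscle they lie in the connective tissue around fibres and bundles and in the tendon, where fibroblasts are their main known source. By sequence and gene structure the members fall into classes. Dcn, Bgn and Aspn belong to class I, Lum, Prelp and Omd to class II, Ogn to class III and Podn to class V.

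The libraries held 38874862 and 38160786 expected counts. All 8 markers of muscle fibres were present, at a median of 8491 and 7998 TPM in replicates 1 and 2. TPM is a relative level scaled by transcript length and by the total of the library, so levels of different genes can be set side by side. All 11 early response genes and all 5 erythroid markers were higher in replicate 2, with median log2 ratios of 1.23 and 0.92, and their part in the ratios given below was not tested. In this bulk RNA, fewer cells of a type and less RNA per cell cannot be told apart.

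Most of the members lie in 3 clusters of related genes, as mapped on mm10 (GRCm38). On chromosome 10, Dcn (97479609 to 97518143) is followed by Lum (97565128 to 97572703), Kera and Epyc, with gaps of 47, 34.2 and 30.4 kb. On chromosome 13, Ecm2 is followed by Aspn (49544443 to 49567565), Omd (49582462 to 49592822) and Ogn (49608046 to 49624501), with gaps of 11.7, 14.9 and 15.2 kb. On chromosome 1, Prelp (133910304 to 133921414) lies 2.3 kb from Optc and 115.8 kb from Fmod. Bgn (73483602 to 73495933) is on chromosome X and Podn (108014791 to 108096445) on chromosome 4, each without another family gene beside it.

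The sequence just before the gene start is shown for 5 members, since the neighbours Aspn, Omd and Ogn differed widely in level and Bgn and Prelp stand outside their cluster. Each run holds the 100 bases before the RefSeq start on the GRCm38.p6 build, read 5′ to 3′ on the gene's strand, and capitals mark a match to the motifs named below.
Bgn: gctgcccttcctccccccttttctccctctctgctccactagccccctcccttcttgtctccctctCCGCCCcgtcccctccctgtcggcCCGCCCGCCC
Aspn: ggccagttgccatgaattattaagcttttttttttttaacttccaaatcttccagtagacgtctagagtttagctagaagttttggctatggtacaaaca
Omd: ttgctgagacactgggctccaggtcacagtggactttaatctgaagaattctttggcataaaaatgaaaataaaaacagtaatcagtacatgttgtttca
Ogn: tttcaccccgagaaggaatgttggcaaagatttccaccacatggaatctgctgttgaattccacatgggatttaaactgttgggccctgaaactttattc
Prelp: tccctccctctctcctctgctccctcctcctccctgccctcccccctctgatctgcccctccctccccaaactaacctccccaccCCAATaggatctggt

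The windows lie at chrX:73483501-73483600 for Bgn, chr13:49544343-49544442 for Aspn, chr13:49582362-49582461 for Omd, chr13:49607915-49608014 for Ogn and, on the minus strand, chr1:133921402-133921501 for Prelp. The RefSeq table matched 6 of the 8 members, Podn with 2 starts, and had none for Dcn or Lum. All windows are of the reference build, and differences of the CAST/EiJ alleles from it were not examined. The windows of the chromosome 13 genes were low in G and C, at 35% for Aspn, 36% for Omd and 43% for Ogn, while those of Bgn and Prelp held 71% and 64%. The letters of a TATA box, a CCAAT box and a GC box were searched on both strands. TATAAA occurred in none of the members' windows and in 5.56% of 32851 promoters. CCAAT was found in Prelp alone among the members, 15 bases before the RefSeq start, and in 18.9% of all promoters. That RefSeq start lies 13 bases after the annotated start of Prelp-201, so the match spans the start of this transcript. GGGCGG was found in Bgn, with 3 matches on the minus strand of which a pair overlaps, in 1 of the 2 Podn windows, and in 24.7% of all promoters. For Omd the RefSeq start is that of transcript Omd-202, 304 bases before that of Omd-201, which held most of the Omd TPM.

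Dcn was the highest member and Omd the lowest, with a level of Dcn 197 times that of Omd in replicate 1 and 157 times in replicate 2. Dcn encodes decorin, a class I proteoglycan with a chondroitin or dermatan sulfate chain that binds collagen and transforming growth factor beta. Its level was 232 TPM in the first mouse and 201.6 TPM in the other, a mean of 217 ± 21.9 (SD, n = 2), from 12482 and 10868 counts. It ranked 229th and 280th among the protein-coding genes. Bgn encodes biglycan, which also binds collagen, signals through Toll-like receptors and is linked to the dystrophin-associated complex at the muscle membrane. Its level was 129 and 121 TPM, or 125 ± 5.81 (SD, n = 2), so Dcn was 1.80 times Bgn in replicate 1 and 1.67 times in replicate 2. The lower of the Dcn values was above the higher of the Bgn values.

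Aspn encodes asporin, the class I member without the usual chain attachment site, which has an aspartate-rich stretch and restrains transforming growth factor beta. It had 30.15 and 32.1 TPM, or 31.1 ± 1.41 (SD, n = 2). Dcn was 7.71 and 6.27 times Aspn. Within class I the order Dcn, Bgn, Aspn held in each library without overlap.

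In class II, Lum encodes lumican, a keratan sulfate proteoglycan known from the cornea that limits the lateral growth of fibrils. Lum had 30.28 and 25.6 TPM, or 27.95 ± 3.30 (SD, n = 2). Lum was thus just above Aspn in replicate 1 and below it in replicate 2, and these were the only neighbours in the order whose ranges overlapped. Prelp encodes a protein with a basic amino-terminal part that binds heparan sulfate and can link basement membranes to the matrix. It had 6.94 and 6.34 TPM, or 6.64 ± 0.424 (SD, n = 2), and Lum was 4.36 and 4.04 times as high. Omd, osteomodulin, is an acidic protein best known from bone. Its 1.18 and 1.28 TPM, or 1.23 ± 0.0707 (SD, n = 2), rested on 58 and 67 counts and were the lowest of the 8.

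The class III gene Ogn encodes osteoglycin, also called mimecan, which is found in bone, cornea and vessel walls. Its mean level came after those of Dcn and Bgn, at 49.0 and 41.1 TPM, or 45.1 ± 5.61 (SD, n = 2). Podn encodes podocan, a class V protein with a longer run of repeats. It had 3.25 and 2.98 TPM, or 3.12 ± 0.191 (SD, n = 2), from 273 and 275 counts. The order of the mean levels was Dcn, Bgn, Ogn, Aspn, Lum, Prelp, Podn and Omd, and 6 of the 7 neighbouring pairs had ranges that did not overlap.

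Summed over the 8 genes, the level was 482 and 432 TPM in the 2 libraries. Dcn alone held 48.2% and 46.7% of it, Bgn 26.8% and 28.0%, and Ogn 10.2% and 9.51%. Aspn held 6.25% and 7.44%, and Lum 6.28% and 5.93%. These 5 genes made 97.6% and 97.5% of the sum, while Prelp held 1.44% and 1.47%, Podn 0.674% and 0.690%, and Omd 0.245% and 0.296%.

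**Figure D1:**
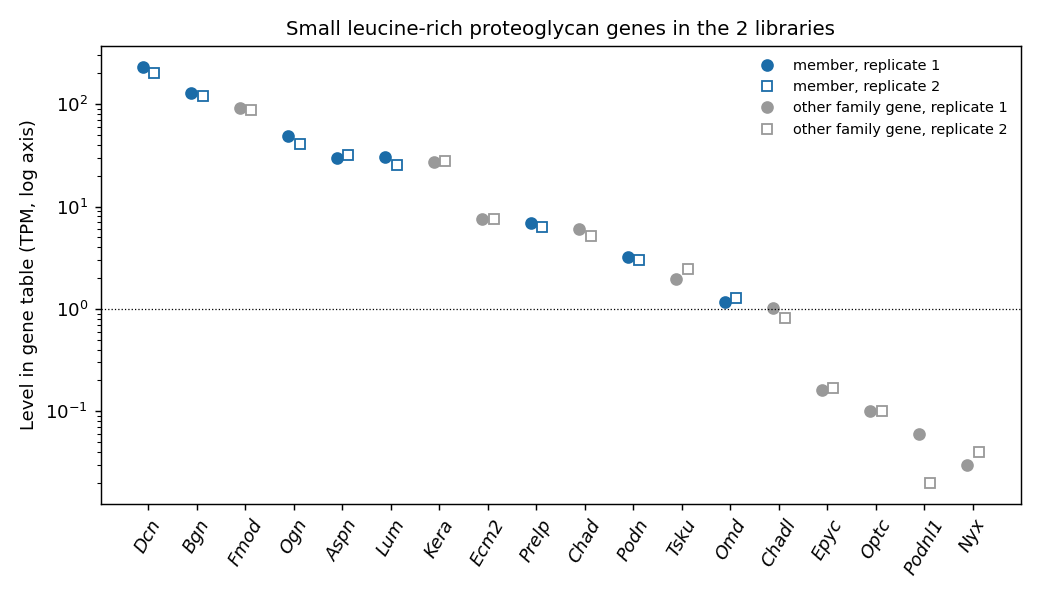
Level of each family gene in TPM (log axis), in order of the mean; blue marks are the 8 members, grey marks the 10 other family genes, filled circles replicate 1 and open squares replicate 2. The dotted line is at 1 TPM: all 8 members lie above it, from Dcn at 232 and 201.6 TPM to Omd at 1.18 and 1.28 TPM, and the members are interleaved with Fmod, Kera, Ecm2, Chad and Tsku.

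Genes beside each other in a cluster differed in level in most cases, with Lum and Kera close to each other. On chromosome 13, Ogn was 41.5 and 32.1 times Omd, and Aspn was 25.6 and 25.1 times Omd, although Omd lies between them. Ecm2, the gene on the other side of Aspn, had 7.58 and 7.57 TPM. On chromosome 10, Dcn was 7.68 and 7.87 times Lum. Kera, which encodes keratocan and is the next gene, had 27.2 and 27.9 TPM, so that Lum was 1.11 times Kera in replicate 1 and 0.917 times in replicate 2. Epyc, epiphycan, the last gene of that cluster and a cartilage protein, had only 0.16 and 0.17 TPM. On chromosome 1, Fmod, fibromodulin, had 91.0 and 87.8 TPM, 13.1 and 13.9 times Prelp, and Optc, opticin, had 0.10 TPM in both libraries.

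Of the 10 other family genes, 5 reached 1 TPM in both libraries: Fmod, Kera, Ecm2, Chad and Tsku. Chad, chondroadherin, had 6.09 and 5.10 TPM and Tsku, tsukushi, 1.95 and 2.46 TPM. Chadl was near that line at 1.03 and 0.81 TPM. Nyx, nyctalopin, had 0.03 and 0.04 TPM, and Podnl1, the gene most like Podn in the family, 0.06 and 0.02 TPM from 4 and 2 counts.

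The exon structure followed the classes, which are themselves drawn in part from gene structure, so this match is no separate result. In the leading transcripts of Dcn, Bgn and Aspn the coding sequence ran over 7 of 8 exons, and exons 3, 4, 6 and 7 had 113, 214, 94 and 139 bases in each of these genes. Exon 5 had 114 bases in Dcn and 111 in Bgn and Aspn. Their coding sequences gave 354, 369 and 373 residues. Lum, Prelp and Omd each had 3 exons of which 2 were coding, with 862, 961 and 940 coding bases in exon 2, and coded for 338, 378 and 423 residues. Ogn had 6 coding exons and 298 residues, the shortest protein, and Podn had 9 and 611 residues, the longest. The exons come from the annotation and use no expression value. Among the 8 members, class I holds the 2 highest genes and class II holds the lowest. The levels were not ordered by class, since Lum of class II had 30.28 TPM in replicate 1 and Aspn of class I 30.15 TPM.

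**Figure D2:**
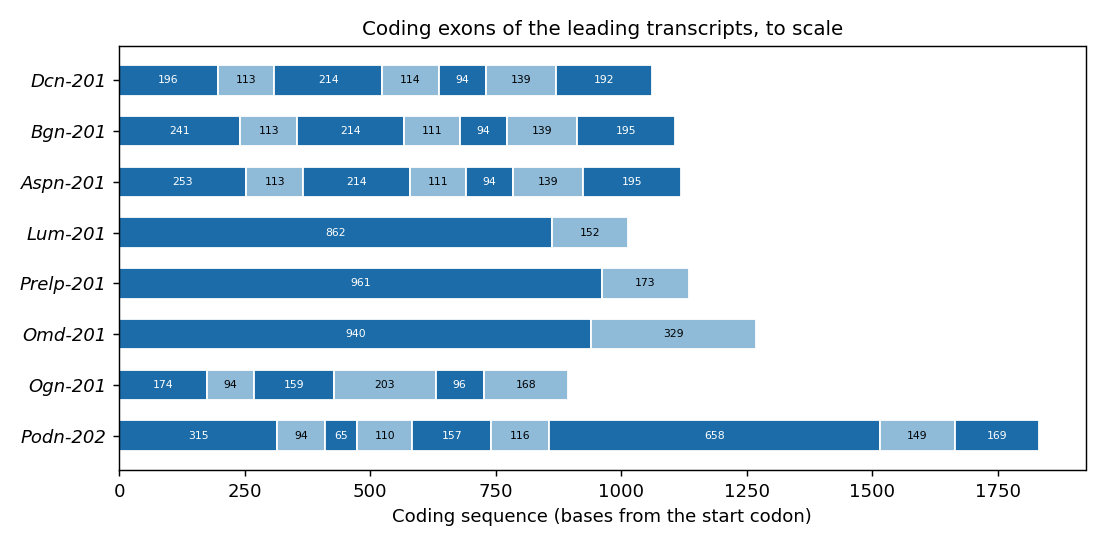
Coding exons of the leading transcript of each member, drawn to scale in bases from the start codon, with alternating shades for successive exons and the coding bases written in each. Dcn-201, Bgn-201 and Aspn-201 share the series 113, 214, 94 and 139 apart from the exon between, and Lum-201, Prelp-201 and Omd-201 each begin with 1 large exon.

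The members have 29 annotated transcripts, and Lum and Ogn have 1 each. In the transcript table that goes with the gene table (the first table), the leading transcript was the same in both libraries for 8 of 8 members. In the second table, made by another quantification of the reads, this held for 6 of 8, and in all 4 library and table combinations for 6 of 8, the exceptions being Aspn and Podn. Dcn is counted among the 6 although its 2 main transcripts were level in replicate 2 of the second table.

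For Dcn the tables divided 2 transcripts differently. Dcn-201 and Dcn-202 have different first exons of 181 bases, starting at 97479609 and 97482367, and share all other exons, so that both code for the same 354 residues. The first table gave Dcn-201 95.7% of the gene in replicate 1 and 94.97% in replicate 2. The second gave it 65.0% and 49.9%, with 34.5% and 49.9% for Dcn-202. Of the 31-base words in the sequence of each, 1550 were common to both and 178 were particular to each. The choice of first exon was therefore not settled by these tables, while the summed level of Dcn was first in both.

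Aspn-201 and Aspn-202 also code for the same protein. Aspn-201 held 87.8% and 89.8% in the first table, and 76.2% and 49.8% in the second. For Bgn, the full-length Bgn-201 led in each library and table, at 82.0% and 86.0% in the first and 74.4% and 71.7% in the second. The rest went to different non-coding transcripts. Bgn-208, a transcript of 548 bases, held 16.7% and 12.5% of the TPM in the first table, which was 3.77% and 2.71% of the counts, and 1.28% and 0% in the second. Bgn-203 held 0.57% and 1.07% of the TPM in the first and 24.0% and 28.0% in the second, which was 6.95% and 8.21% of the counts there.

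Prelp-201, the only coding transcript of Prelp, held 94.7% and 100% in the first table and 65.0% and 75.6% in the second. There the shorter Prelp-202 held the remainder of the TPM, which was 7.28% and 4.44% of the counts. For Omd, Omd-201 held 92.0% and 77.6% in the first table and 68.8% and 58.4% in the second. Podn varied most. Podn-202 led the first table with 71.0% and 49.5%, but held 4.73% and 0.241% in the second. Podn-203 had 0% in replicate 1 and 43.0% in replicate 2 of the first table, and 1.53% and 50.4% in the second. Podn-201 led the second table in replicate 1 with 60.8%. The non-coding Podn-208 held 13.7% and 3.71% in the first table and 25.5% and 16.4% in the second, and Podn-206 at most 7.39%. Of the counts in the second table, Podn-208 held 5.02% and 2.78%. Podn-201, Podn-202 and Podn-203 code for the same 611 residues, and the whole gene had 273 and 275 counts, so its transcript shares are uncertain.

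**Figure D3:**
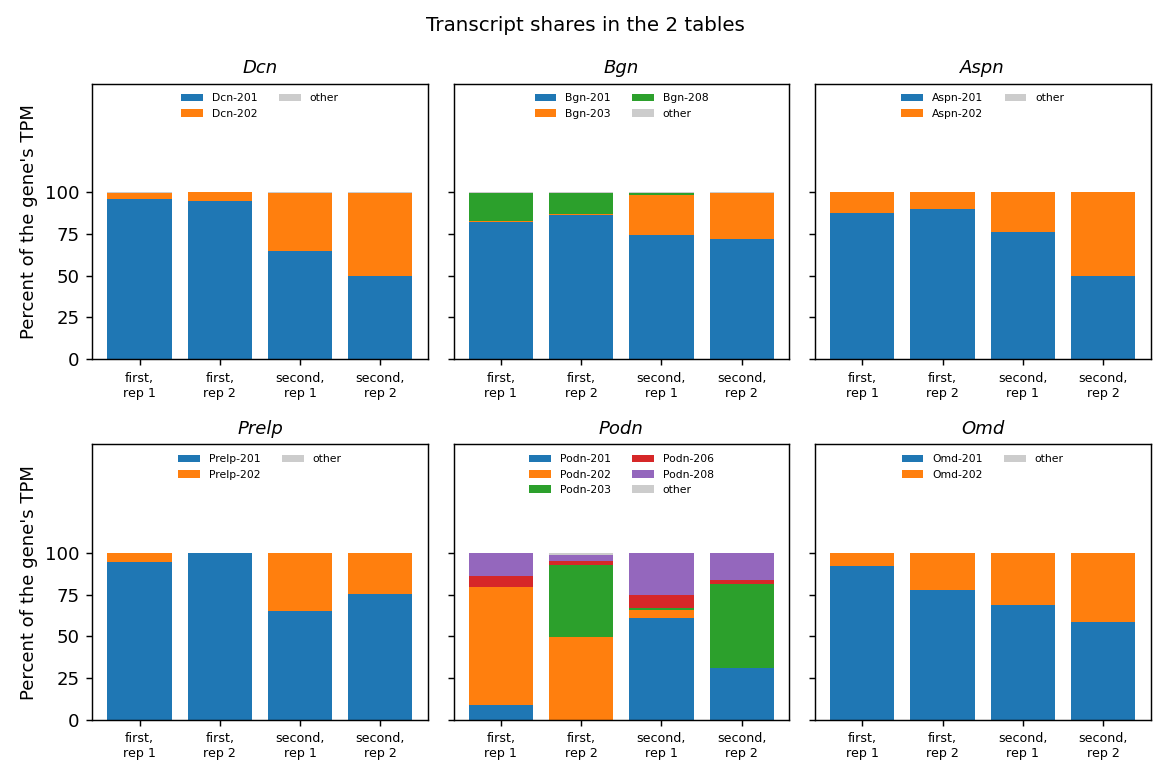
Percent of each gene's TPM held by its transcripts in the 2 tables and 2 replicates, for the 6 members with several transcripts; each bar adds up to 100%, and grey is the sum of transcripts that stayed below 5%. The bars of Bgn keep Bgn-201 in the lead throughout, while those of Podn differ between replicates and between tables.

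The second table gave higher TPM for all 8 members, with the same order of the means. Dcn had 326 and 281 TPM, Bgn 193 and 192, Ogn 64.4 and 53.3, Aspn 42.4 and 43.7, and Lum 45.9 and 38.0. Prelp had 12.8 and 11.2 TPM, Podn 5.34 and 5.15, and Omd 1.62 and 1.70. The ratio of the second to the first table ran from 1.30 for Ogn to 1.85 for Prelp, where the median protein-coding gene had 1.48 in replicate 1 and 1.45 in replicate 2. Prelp, Podn, Bgn and Lum were above these medians in both libraries, and Dcn, Ogn, Aspn and Omd below.

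Neighbouring and similar sequences touched few of the values. The share of a member's 31-base words that occur in the same direction in another gene was 0.348% or less in 7 of 8 members and 5.43% in Omd. Matches in the reverse direction were left out of this share. Cenpp, a centromere protein gene on the opposite strand, spans Aspn, Omd and Ogn, but shares 7 exonic bases with Aspn and none with the others, and had 1.21 and 1.43 TPM. Gm15851, antisense to Prelp over 350 exonic bases, had 0 counts. No source used here says if the counts are strand-specific, so the values of overlapping genes on opposite strands are uncertain. Scp2, on the same strand as Podn, overlaps its span but no exon, at 53.7 and 56.6 TPM.

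The 2 mice were then compared as replicate 2 over replicate 1, on the log2 scale of counts scaled with TMM, with an exact binomial 95% interval that covers counting error only. Ogn was at -0.18 (-0.25 to -0.12), Lum at -0.17 (-0.26 to -0.08) and Dcn at -0.13 (-0.17 to -0.09). Aspn was the only member whose interval lay above 0, at 0.16 (0.08 to 0.25). The intervals of the other 4 held 0: Bgn was at 0.03 (-0.01 to 0.07), Prelp at 0.00 (-0.15 to 0.15), Podn at 0.08 (-0.17 to 0.33) and Omd at 0.28 (-0.25 to 0.81). In TPM, which is scaled over all features and by transcript length, Bgn, Prelp and Podn were lower in replicate 2. Their direction thus depends on the measure. With counts scaled by library totals, Bgn was at -0.01 and Prelp at -0.04, while Podn stayed above 0 at 0.04. With counts of the second table, Bgn was at 0.07 (0.02 to 0.11), Prelp at 0.09 (-0.05 to 0.24) and Podn at 0.25 (0.02 to 0.49).

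No member had a log2 ratio beyond 0.32 in either direction, where 10.4% of the 11488 genes averaging at least 100 counts did. Toward lower values in replicate 2 the count was 0 of 8 members, with 4.61% of the 11488 genes. Of the 8 members, 4 had an interval that left out 0, with a share of 36.0% over all genes. The interval lay wholly below 0 in 3 of 8 members and in 14.1% of all genes. Because the interval narrows as counts rise, these shares depend on the counts of the genes compared. The log2 ratio was below 0 in 3 of 8 members and in 44.4% of all genes. The median ratio of the members was 0.02, as was that of all genes, and the median absolute ratio was 0.15 against 0.11. Omd did not reach the mean count of 100 that the background required, and the other 7 did. The summed count of the 8 members was lower in replicate 2, at -0.06 (-0.09 to -0.04).

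**Figure D4:**
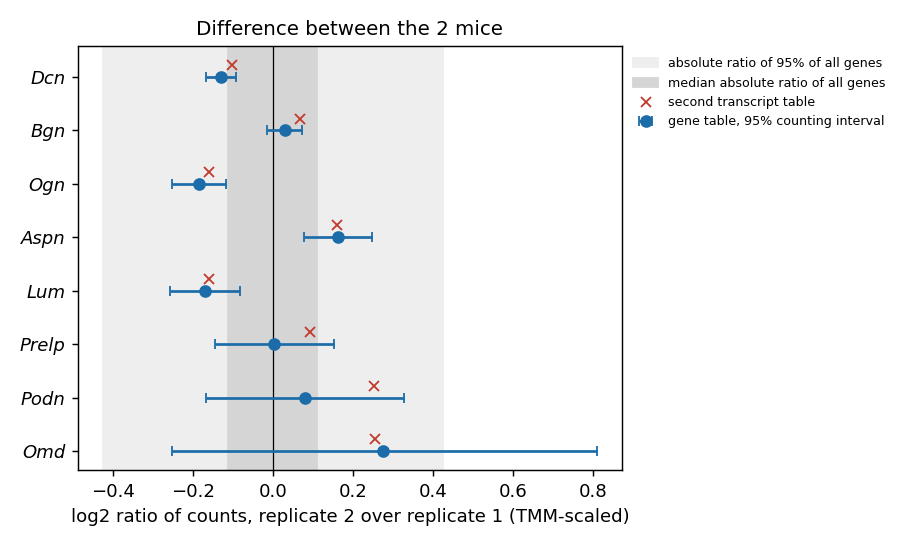
Log2 ratio of counts in replicate 2 over replicate 1 for each member; blue points with bars are the gene table with 95% counting intervals, red crosses the second transcript table, and the grey bands the median (dark) and the 95th percentile (light) of the absolute ratio over all genes. The points of all members lie within the light band, with Dcn, Ogn and Lum to the left of 0 and Aspn to the right.

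Markers of cell types that the tissue could hold were measured in the same libraries. As background for the ratios of all lists, the 14667 genes averaging at least 20 counts had a median log2 ratio of 0.008. Of these genes, 48.2% had a ratio below 0, 32.0% an interval that left out 0 and 13.85% an interval below 0. All 10 fibroblast and fibro-adipogenic markers reached 1 TPM in both libraries, with summed levels of 456 and 464 TPM and a median log2 ratio of 0.07. Of these 10 markers, 7 were higher in replicate 2, with an interval above 0 for 4 (Col15a1, Gsn, Mfap5 and Pi16) and below 0 for 1 (Pdgfra, at -0.13). Col15a1 had 145 ± 5.11 TPM, Gsn 91.1 ± 3.27 TPM and Cd34 67.9 ± 1.48 TPM (SD, n = 2). Pi16 had the largest ratio of that list, 0.35. All 6 tendon markers were present, with summed levels of 148 and 151 TPM, led by Tnmd at 58.4 ± 0.290 TPM and Thbs4 at 56.0 ± 1.66 TPM (SD, n = 2). Scx, a tendon transcription factor, had a ratio of 0.42. Of 9 bone and cartilage markers 3 reached 1 TPM in both libraries, and the list had summed levels of 18.5 and 17.8 TPM. The 3 were Col2a1 at 14.3 and 13.6 TPM, Acan at 1.89 and 1.61 TPM and Alpl at 1.16 and 1.56 TPM. Col2a1 is also in the collagen list below. The bone genes Bglap and Ibsp had 0 counts in both libraries. All 5 endothelial and all 5 mural markers were higher in replicate 2, with summed levels of 143 and 152 TPM and of 346 and 399 TPM and median ratios of 0.20 and 0.16, while the 5 macrophage markers, at 42.7 and 39.5 TPM in sum, had a median of 0.04. The part of any of these cell types in the levels or ratios of the members was not tested.

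The collagens that the family binds were all present. All 14 fibrillar and fibril-associated collagen genes of the list reached 1 TPM in both libraries, with medians of 77.8 and 73.6 TPM. Col1a1 was 9.28 times Dcn in replicate 1 and 9.73 times in replicate 2, Col1a2 was 5.38 and 5.85 times and Col3a1 5.20 and 5.29 times. Col6a1, of the microfibrillar collagen that surrounds muscle fibres, was 0.615 and 0.681 times Dcn. The ratios between the mice ran from -0.07 to 0.07 with a median of -0.03, and the interval lay below 0 for 6 genes and above 0 for 1. Col11a2 had the largest, -0.07 (-0.13 to -0.02).

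Enzymes that build the sugar chains were expressed at a lower level than the most abundant cores. Of 26 genes of chondroitin and dermatan sulfate assembly 22 reached 1 TPM in both libraries, at medians of 4.13 and 3.85 TPM. Fam20b, the xylose kinase of the linkage region, had 12.8 ± 0.219 TPM, B3gat3, which adds the last linkage sugar, 10.4 ± 0.601 TPM, and Chpf, a polymerising factor, 10.3 ± 1.21 TPM (SD, n = 2). The epimerases that turn chondroitin into dermatan sulfate, Dse and Dsel, had 5.38 and 4.10 TPM and 5.13 and 4.30 TPM. In this list 14 genes had a ratio above 0 and 12 below, with intervals above 0 for Chpf, Chst3 and Chst7 and below 0 for Xylt1 and Papss1. Chst13 had the largest ratio, -0.68 (-1.50 to 0.09). Of 8 genes of keratan sulfate assembly, 6 reached 1 TPM, led by the galactosyltransferase gene B4galt1 at 21.2 ± 1.28 TPM (SD, n = 2), with a ratio of -0.06 (-0.14 to 0.02).

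Ligands and receptors that bind the cores formed a list of which 14 of 16 matched genes reached 1 TPM in both libraries. The elastic fibre genes Eln and Fbn1 led it at 98.0 ± 18.7 and 91.3 ± 1.53 TPM, followed by Lrp1, an uptake receptor, at 44.1 ± 0.764 TPM (SD, n = 2). Eln was at 84.7 and 111 TPM, a ratio of 0.47 (0.43 to 0.51). Egfr, which decorin binds, had 10.8 and 9.63 TPM. Tlr4 had 2.71 and 3.08 TPM and Tlr2 0.57 TPM in both. Of 12 genes for proteases and enhancers that act on matrix proteins, 9 reached 1 TPM. Pcolce, an enhancer of procollagen cleavage, had 118 ± 8.80 TPM, Mmp2 85.0 ± 1.26 TPM and Mmp14 48.5 ± 0.544 TPM (SD, n = 2). Bmp1, the protease that trims the propeptides of biglycan and of procollagens, had 20.96 and 20.4 TPM. Adamts1 was at 6.54 and 11.7 TPM, a ratio of 0.94 (0.83 to 1.06).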

How the data were processed

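The deposited gene and transcript tables follow the RSEM layout, per the file headers. Their expected counts and TPM were made by the authors from a transcriptome BAM file (mm10, annotation M21), per notes deposited with them. They also give, as deposited, the percent of a gene held by each transcript and the bounds of a credibility interval for the TPM signal, which are not printed. A second deposited transcript table, of kallisto layout, lists estimated counts and TPM. The aligner was not given in the sources used here. TPM is scaled over all features and by transcript length, so its direction between libraries can differ from that of scaled counts. Expected counts were rounded and scaled with TMM over genes averaging at least 10 counts (edgeR 4.0.16, R 4.3.3). Ratios used a prior count of 0.5. DESeq2 1.42.0 size factors were an alternative. Other steps used Python 3.11.15, pandas 2.3.3 and scipy 1.17.1. The ratio step was tested on simulated counts that held counting error only. The outcome is not given here and says nothing of the spread between mice. The members and lists were chosen with earlier results of these data known. Named were all members and family genes, the 3 highest genes and the largest ratio of each list, and transcripts with 5% or more of a gene, although not all of these list genes are printed; other genes named from the lists were chosen after their values were seen. Of the lists, 1 symbol had no match (Wisp1), and 1 marker list is not reported here. The planned account of protein sequences was not made, since none were used here.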

Additional observations from a re-analysis of the deposited data

How the results depend on the processing

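The order of the 8 mean levels and its 6 separate neighbouring pairs were the same in the second table, with posterior mean TPM and with TPM over nuclear protein-coding genes. The level of Podn moved with posterior mean TPM, to 3.76 and 3.77 in replicates 1 and 2 from 3.25 and 2.98 TPM. The summed TPM of 457 became 659 in the second table and 1040 over nuclear protein-coding genes, and ran from 432 to 482 with either library left out. The share of Dcn, 47.4%, was 46.0% in the second table and ran from 46.7% to 48.2% with either library left out. The share of the 5 highest members, 97.6%, was 97.1% in the second table and 97.4% with posterior mean TPM, and ran from 97.5% to 97.6% with either library left out. The median log2 ratio of 0.02 turned to -0.0262 with library totals and -0.0146 with spike-in totals, where 5 members in place of 3 were lower in replicate 2. No member passed a log2 ratio of 0.32 in size under any scaling or table run. The count of intervals that leave out 0 went from 4 to 6 in the second table, where Bgn and Podn were added. It went to 5 with TMM over all genes, where Bgn was added. These counts of members under other scalings and in the second table have no matching share over all genes. That share was taken with the main scaling only. There, the share of all genes past a log2 ratio of 0.32 in size rose from 10.4% to 18.6% at a mean count of 20 and to 45.0% with no filter. The share with an interval leaving out 0 went from 36.0% to 20.3% with no filter. Podn-202 held 39.6% of its gene by the posterior mean, an alternative chosen after seeing the data. No ratio exists with 1 library left out. No paired analysis was possible because there is 1 group.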

Other observations

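Other proteoglycan core proteins gave a second set of values. Of 27 genes, 18 reached 1 TPM in both libraries, with medians of 6.14 and 6.36 TPM. Gpc1, a glypican held at the cell surface by a lipid anchor, had 120 and 116 TPM, and Hspg2, which encodes perlecan of basement membranes, 109 and 104 TPM. Gpc4, another glypican, had 52.9 and 49.1 TPM. Gpc1 and Hspg2 were thus between Bgn and Ogn in level. The large aggregating proteoglycan gene Vcan had 17.9 and 16.8 TPM, and Acan, its cartilage relative, 1.89 and 1.61 TPM. Sdc4, a syndecan, was at 22.3 and 27.7 TPM, a log2 ratio of 0.31 (0.21 to 0.41).

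Of the 24 genes of that list with a mean count of 20 or more, 12 were higher and 12 lower in replicate 2, with intervals above 0 for 6 and below 0 for 5. The largest ratio was in Ncan, neurocan, which was at 0.26 and 0.02 TPM, a log2 ratio of -3.39 (-5.19 to -2.21). It rested on only 60 and 5 counts, and the ratio was -2.28 in the second table.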
